A study of Mus musculus with 8 samples.

Results

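The report concerns 9 genes used as markers of pericytes: Rgs5, Cspg4, Notch3, Mcam, Kcnj8, Abcc9, Steap4, Heyl and Ndufa4l2. They were chosen by name, and each matched 1 of the 53801 rows of the deposited gene table. All 9 passed the filter on low counts, which kept 15643 genes. RNA was sequenced from stromal cells sorted from the small intestine of mice carrying a floxed lymphotoxin β receptor gene (LTβRflox) together with PDGFRα/YFP. Every library came from cells that were YFP+ (a yellow fluorescent reporter) and lacked the leukocyte marker CD45 and the endothelial marker CD31. Surface PDGFRα divided them into 4 PDGFRα+ and 4 PDGFRα- libraries, numbered 1 to 4 in each group. The floxed allele and YFP are thus shared by both groups. Mice lacking the floxed allele were not analysed here. The sources used here do not state age, sex, the driver of YFP or whether each library is its own mouse, so p-values measure only how these libraries scatter, and that scatter may be technical.

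Pericytes wrap capillaries and small venules inside the vascular basement membrane. They belong with vascular smooth muscle to the mural cells, depend on signalling from endothelial PDGF-B to PDGFRβ, and use NOTCH3 to take up and keep their identity. They carry an ATP-sensitive potassium channel, built from a pore of KCNJ8 subunits and a ring of regulatory ABCC9 subunits, that couples the metabolic state of the cell to its membrane potential. Most genes used as pericyte markers are shared in part with smooth muscle or fibroblasts, so each is read here as a gene and not as a count of cells. In bulk RNA, fewer cells of a type and less RNA per cell cannot be told apart.

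Of the 9 genes, Cspg4 stood higher and Abcc9 lower in PDGFRα+ libraries with no overlap between the groups, as in 5.05% of all tested genes. Kcnj8, the partner of Abcc9, was lower in PDGFRα+ cells in 4 of 4 same-numbered pairs, as were 10.2% of tested genes. None of the 3 passed edgeR's test on group alone (adjusted p = 0.113 for Cspg4, 0.183 for Abcc9 and 0.949 for Kcnj8). With the replicate number added as a block, Cspg4 (edgeR adjusted p = 0.0402) and Abcc9 (0.00527) passed, as did 2.27% of all tested genes. Kcnj8 did not pass there either (edgeR adjusted p = 0.487). The promoters of Cspg4 and of the channel pair Abcc9 and Kcnj8 are shown to place these genes, and nothing ties the letters to the values. Each runs from 250 bases before to 50 bases after the RefSeq start (GRCm38.p6) and is printed 5′ to 3′ on the strand of its gene. The Abcc9 sequence lies at chr6:142702225-142702524 (- strand), the Kcnj8 sequence at chr6:142571565-142571864 (- strand) and the Cspg4 sequence at chr9:56864854-56865153 (+ strand). Capitals mark TGGGAA, the core read by the Notch effector RBPJ, and in Abcc9 also a match to the MEF2 motif, named for a family of muscle transcription factors. Neither is in the Cspg4 sequence.
Abcc9: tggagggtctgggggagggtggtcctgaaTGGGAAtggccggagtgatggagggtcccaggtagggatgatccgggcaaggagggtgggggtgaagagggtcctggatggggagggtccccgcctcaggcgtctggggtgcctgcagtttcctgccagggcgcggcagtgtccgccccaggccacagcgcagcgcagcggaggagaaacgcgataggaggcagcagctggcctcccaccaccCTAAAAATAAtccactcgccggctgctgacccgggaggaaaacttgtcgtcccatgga
Kcnj8: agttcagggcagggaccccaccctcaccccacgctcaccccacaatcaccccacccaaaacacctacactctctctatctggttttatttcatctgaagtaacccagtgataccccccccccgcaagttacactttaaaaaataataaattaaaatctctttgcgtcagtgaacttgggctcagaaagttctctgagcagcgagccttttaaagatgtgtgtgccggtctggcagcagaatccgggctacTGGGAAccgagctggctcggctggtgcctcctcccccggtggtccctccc
Cspg4: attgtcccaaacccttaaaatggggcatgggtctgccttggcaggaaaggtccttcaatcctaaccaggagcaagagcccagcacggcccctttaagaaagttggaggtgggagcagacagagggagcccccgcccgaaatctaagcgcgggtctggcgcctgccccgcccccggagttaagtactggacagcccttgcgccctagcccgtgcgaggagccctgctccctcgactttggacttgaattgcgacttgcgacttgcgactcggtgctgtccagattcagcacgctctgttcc
Both strands were searched, and the 2 matches in Abcc9 do not overlap. TGGGAA was in 25.6% of 32851 mouse promoters of the same length, and among the 7 members with a RefSeq promoter (all but Heyl and Ndufa4l2) it was in those of Abcc9, Kcnj8 and Steap4 and not in those of Rgs5, Cspg4, Notch3 and Mcam. The MEF2 motif was in 1.86% of all promoters and, among these members, in Abcc9 alone, while the CArG box of smooth muscle genes, in 1.63% of all promoters, matched none of the 7. These motifs were picked with the sequences in view, and a match is a description of letters and not of binding.

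Total counts ranged from 13 to 35.1 in PDGFRα+ and from 12.9 to 26.9 in PDGFRα- libraries, in units of 1e+06. Levels below are CPM, counts per 1e+06 of library size scaled by TMM. RNA of the sort marker did not separate the groups, with Pdgfra at 597 ± 69.2 CPM in PDGFRα+ and 652 ± 124 CPM in PDGFRα- libraries (SD, n = 4 each; log2 fold change -0.13, edgeR adjusted p = 0.971), so the RNA does not check a sort made on protein. A call means a Benjamini-Hochberg adjusted p under 0.05 over all 15643 genes in edgeR's quasi-likelihood test. The fit with group alone is the primary one, because the labels state no pairing. A fit with the replicate number as a block is given beside it where it changes a call, because the comparison deposited by the authors used the number, although whether the libraries are paired depended on the genes used to check it.

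The members differed widely in level, which bears on the name of the group. On the scale of CPM per kilobase of exon, Rgs5 averaged 180.3 ± 54.1 in PDGFRα+ and 210.1 ± 76.0 in PDGFRα- libraries and was above every other member in 8 of 8 libraries. Steap4 followed at 21 ± 19.5 and 29.7 ± 25.8 CPM per kilobase and was above Abcc9 in 7 of 8 libraries. Below these, neighbours in the order Abcc9, Mcam, Cspg4, Kcnj8, Heyl and Ndufa4l2 changed places between libraries, with the first of each pair above the second in 3 to 5 of 8. Notch3, the lowest on average, had 1.27 ± 0.718 CPM per kilobase in PDGFRα+ and 1.68 ± 1.73 CPM per kilobase in PDGFRα- libraries and was below Ndufa4l2 in 7 of 8.

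Other mural cell genes were just as uneven. Pdgfrb, the receptor for PDGF-B, stood at 225 ± 50.3 CPM in PDGFRα+ and 238 ± 44.4 CPM in PDGFRα- libraries. Of 16 further mural cell genes, however, 6 did not pass the filter: the matrix protein gene Vtn, the hypoxia-linked gene Higd1b, the connexin gene Gja4, the cytochrome oxidase isoform gene Cox4i2, the T-box gene Tbx18 and Rergl. Their group means were at most 0.875 CPM. The other 10 of the 16 were tested, with means over all 8 libraries from 9.15 CPM for Itga7 to 151 CPM for P2ry14 and 232 CPM for Pdgfrb. Higd1b had 0 counts in every library, which in the shallowest library allows up to 0.232 CPM (3 counts). That 0 is not read as absence, since the mitochondrial gene mt-Co2 was also listed at 0 in all 8 libraries while mt-Co1 had at least 12314 counts. High Rgs5 and Pdgfrb, and other mural cell genes at lower levels, thus stood beside several markers of brain and other pericytes at or near 0. Fibroblast RNA was abundant (Col3a1 at 45350.3 ± 3564 CPM in PDGFRα+ and 64549 ± 8543 CPM in PDGFRα- libraries). The name of the group is therefore kept for the genes and not for the sorted cells.

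**Figure D1:**
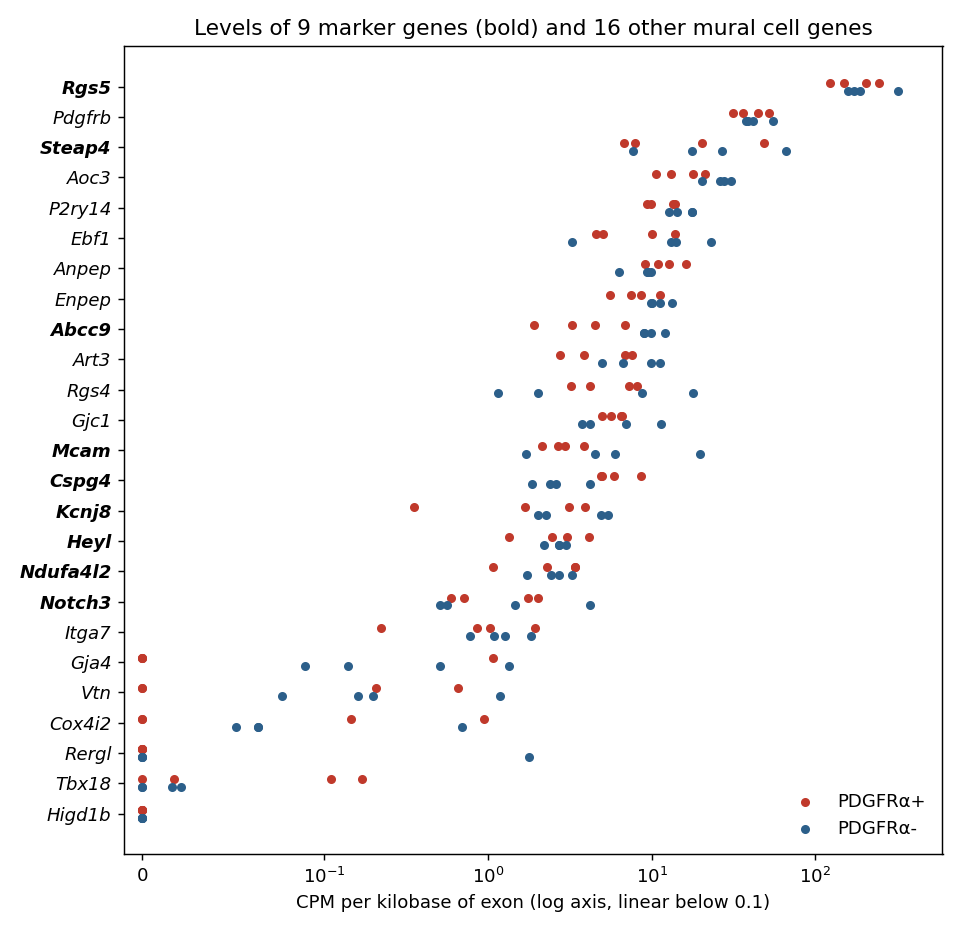
Level of the 9 marker genes (bold) and 16 other mural cell genes in CPM per kilobase of exon (log axis, linear below 0.1), with each dot a PDGFRα+ (red) or PDGFRα- (blue) library. Rgs5 lies at 124 to 323 in all libraries, Notch3 at 0.513 to 4.19, and Higd1b at 0.

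Of the channel pair, Abcc9 was lower in PDGFRα+ cells without overlap, and Kcnj8 did not pass the test in either fit. Abcc9 (ENSMUSG00000030249, chromosome 6, 142587862 to 142702315, GRCm38), the regulatory subunit gene, had 57.9, 16.1, 27.5 and 37.9 CPM in PDGFRα+ libraries 1 to 4 and 83.2, 75.4, 75.6 and 102 CPM in PDGFRα- libraries 1 to 4. Every PDGFRα+ library was below every PDGFRα- library, and the PDGFRα- values lay close together. It was 2.41-fold lower in PDGFRα+ libraries, a log2 fold change of -1.27 ± 0.31 (SE) that did not pass the primary test (edgeR adjusted p = 0.183). With the block it was -1.40 ± 0.23 (95% interval -1.89 to -0.91, edgeR adjusted p = 0.00527), a call that was lost without number 3 (edgeR adjusted p = 0.0872). Leaving out PDGFRα+ library 1 gave a call in the primary fit too (log2 fold change -1.63, edgeR adjusted p = 0.0441). In the authors' deposited table Abcc9 has a log2 fold change of -1.42 and an adjusted p of 6.43e-07. Exons of Abcc9 share 158 bases, 1.89% of their length, with the antisense gene 5330439B14Rik, which had at most 43 counts in a library against at least 393 for Abcc9.

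Kcnj8 (ENSMUSG00000030247, chromosome 6, 142564837 to 142571614), the pore subunit gene, had 8.02, 0.901, 4.29 and 10 CPM in PDGFRα+ libraries 1 to 4 and 13.9, 5.73, 5.15 and 12.6 CPM in PDGFRα- libraries 1 to 4. It was lower in PDGFRα+ cells within every number, but the groups overlapped, and PDGFRα+ library 2 rested on 22 counts. The log2 fold change of -0.69 ± 0.61 (SE) was not past the threshold (edgeR adjusted p = 0.949), nor was that of -0.95 ± 0.49 with the block (adjusted p = 0.487, 95% interval -1.99 to 0.08). The 95% interval was -2.0 to 0.62 without the block, and both intervals hold 0 as well as the log2 fold change of Abcc9.

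Set against each other within a library, the subunit genes kept no fixed ratio. Abcc9 had 7.21, 17.9, 6.41 and 3.78 times the counts of Kcnj8 in PDGFRα+ libraries 1 to 4, and 5.99, 13.2, 14.7 and 8.09 times in PDGFRα- libraries 1 to 4. The log2 ratio was 0.40 lower in PDGFRα+ cells (difference -0.40, exact 2-sided permutation p = 0.543, smallest possible 0.0286, n = 4 each), within the spread of the libraries. Within PDGFRα+ the genes did move together: both were lowest in PDGFRα+ library 2 and both were high in PDGFRα+ libraries 1 and 4. The low library was not particular to the pair. PDGFRα+ library 2 was below the group mean for 8 members and above it for 1 (median deviation -0.87 on the log2 scale). Kcnj8 rested there on 22 counts. In PDGFRα- libraries Abcc9 varied little, with deviations of -0.14 to 0.28, while those of Kcnj8 were -0.68 to 0.67. Deviations of log2 CPM of the channel genes from the group means had a Pearson r of 0.86 over 8 libraries. It was the highest of the 36 pairs of members, given as a description with no test. The alternative subunit genes of this channel family had few or no counts. Kcnj11 was at 0 counts in every library, and Abcc8 at 0.451 ± 0.839 CPM in PDGFRα+ and 0.209 ± 0.189 CPM in PDGFRα- libraries. As for Higd1b, the 0 of Kcnj11 is not read as absence, since mt-Co2 was listed at 0 throughout as well.

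Kcnj8 and Abcc9 are neighbours on the same strand, with 16247 bases between them. Of the 8 other protein-coding genes within 200000 bases of the pair, 5 were tested, and none was called in either fit (edgeR adjusted p from 0.407 to 0.994 over both). Golt1b, a Golgi transport gene, stood at 28.6 CPM in PDGFRα+ and 26.4 CPM in PDGFRα- libraries, and the sialic acid synthesis gene Cmas at 15.0 and 14.1 CPM. Ldhb, a lactate dehydrogenase gene that lies 56880 bases away, had a blocked log2 fold change of -1.46 with an edgeR adjusted p of 0.541, at means of 2.61 and 4.68 CPM. St8sia1, a ganglioside synthesis gene, had a blocked log2 fold change of -0.71 and the DNA helicase gene Recql one of 0.70 (95% interval 0.02 to 1.38, edgeR adjusted p = 0.407). Of the 5 tested neighbours, Golt1b and Cmas thus lay near 0 and the other three did not, without passing the test.

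**Figure D2:**
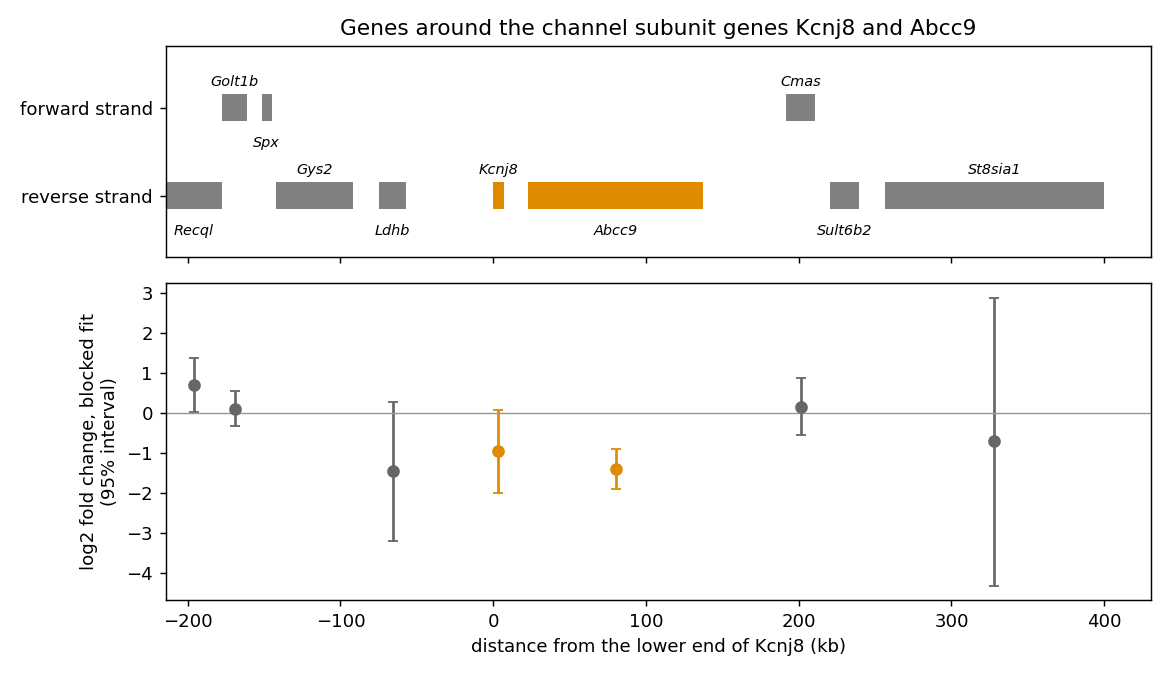
Protein-coding genes within 200000 bases of Kcnj8 and Abcc9 (orange), drawn by distance in kb, with the blocked log2 fold change of PDGFRα+ over PDGFRα- and its 95% interval below each tested gene. Abcc9 stands at -1.40, Kcnj8 at -0.95 and Golt1b and Cmas at 0.11 and 0.15.

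Cspg4 went the other way. It encodes the proteoglycan NG2, a surface protein of pericytes, smooth muscle and glial progenitors (ENSMUSG00000032911, chromosome 9, 56865033 to 56899870). PDGFRα+ libraries 1 to 4 had 59.0, 103, 70.2 and 59.7 CPM and PDGFRα- libraries 1 to 4 had 28.7, 22.1, 31.1 and 49.8 CPM. The lowest PDGFRα+ library was above the highest PDGFRα- library, by little. The log2 fold change was 1.15 ± 0.26 (SE), 2.22-fold higher, with edgeR adjusted p = 0.113 in the primary fit, and 1.17 ± 0.26 with edgeR adjusted p = 0.0402 with the block. The blocked call was lost without number 1 (adjusted p = 0.138) and without number 3 (0.235). Without PDGFRα- library 4, the PDGFRα- library with most Cspg4, the primary fit called it as well (log2 fold change 1.42, edgeR adjusted p = 0.0272). The authors' deposited table gives 1.16 and an adjusted p of 0.000617.

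**Figure D3:**
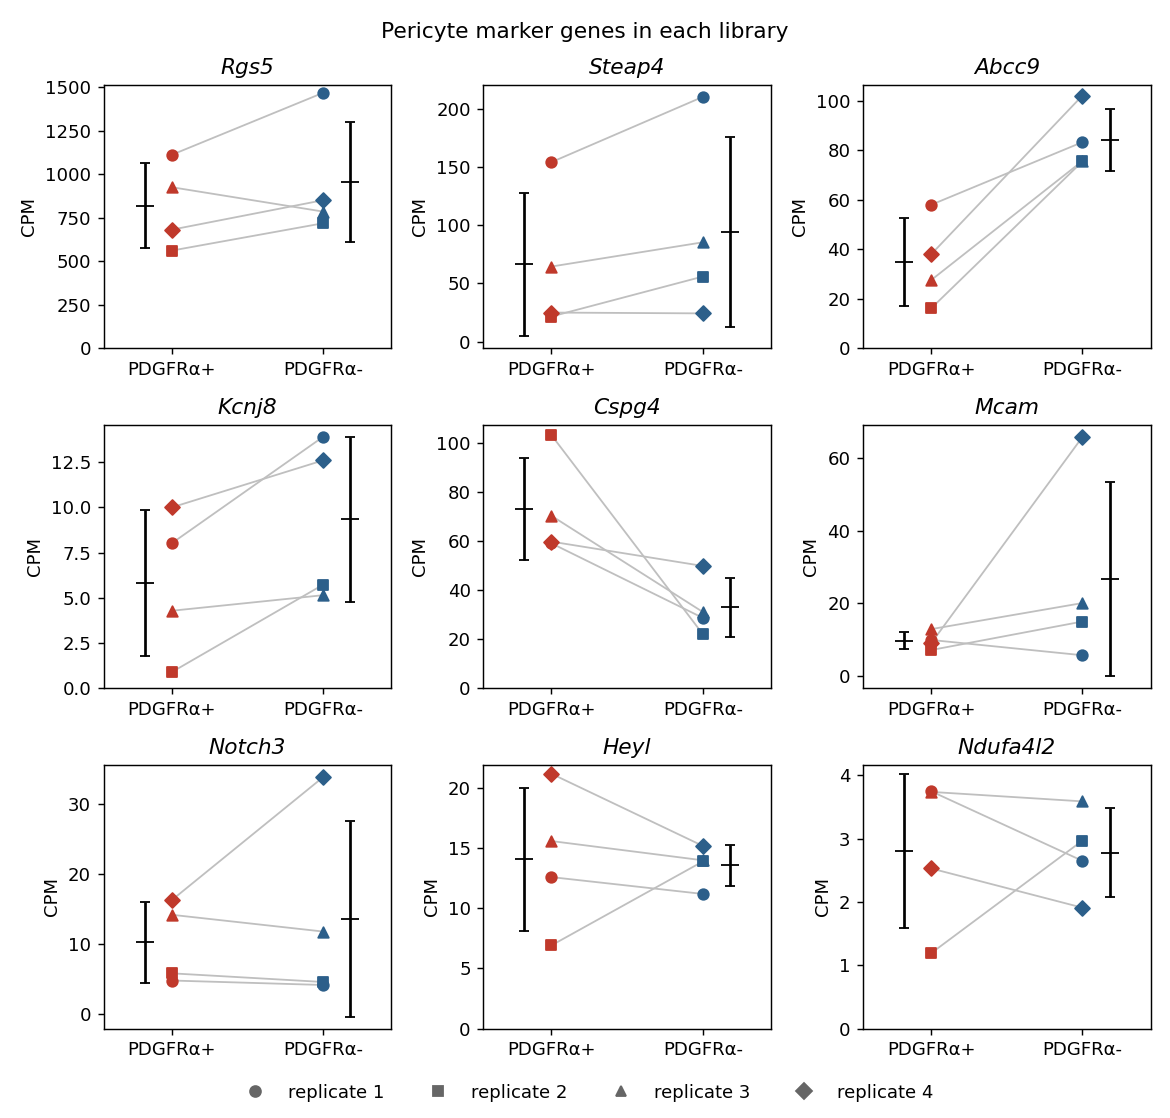
CPM of each marker gene in every library, PDGFRα+ left and PDGFRα- right, with marker shape for the replicate number, grey lines joining equal numbers, and bars for mean ± SD (n = 4). Cspg4 lies at 59.0 to 103 in PDGFRα+ and 22.1 to 49.8 in PDGFRα- libraries, Abcc9 at 16.1 to 57.9 and 75.4 to 102, and the other 7 genes overlap.

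As a group, the 9 genes gave 0 calls in the primary fit, where 0.243% of all tested genes were called, 0.192% higher and 0.0511% lower. An unadjusted p under 0.05 was reached by Cspg4, Abcc9 and Mcam in the primary fit (1087 of all 15643 genes) and by Cspg4, Abcc9 and Steap4 with the block (1823 of 15643). With group alone limma-voom called 0 of the 9 (0.134% of all genes higher and 0.0575% lower), and DESeq2 called Cspg4 higher and Abcc9 lower (0.899% and 0.669% of all genes, 1.57% in all). With the block edgeR called 1 higher and 1 lower, the same genes, against 1.34% and 0.933% of all genes, 2.27% in all. The authors' deposited table lists these genes alone of the 9 at an adjusted p under 0.05, with 2.3% of its genes higher and 2.52% lower, 4.82% in all. Groups without overlap were seen for 1 member above and 1 below, against 2.69% and 2.36% of tested genes, 5.05% in all. PDGFRα+ was higher in 4 of 4 pairs for 1 member and lower in 4 of 4 for 2, against 10.3% and 10.2% of tested genes. The median log2 fold change was -0.41 in the primary and -0.21 in the blocked fit (-0.0087 and -0.0051 over all tested genes), with 6 of 9 negative in the primary and 8 of 9 in the blocked fit. Over all tested genes 49.1% were positive in the primary and 49.5% in the blocked fit. Heyl, Notch3 and Ndufa4l2 were only just negative with the block, at -0.04, -0.06 and -0.07. The count of negative values is therefore not read as a shift of the group, and the members called with the block had opposite signs.

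**Figure D4:**
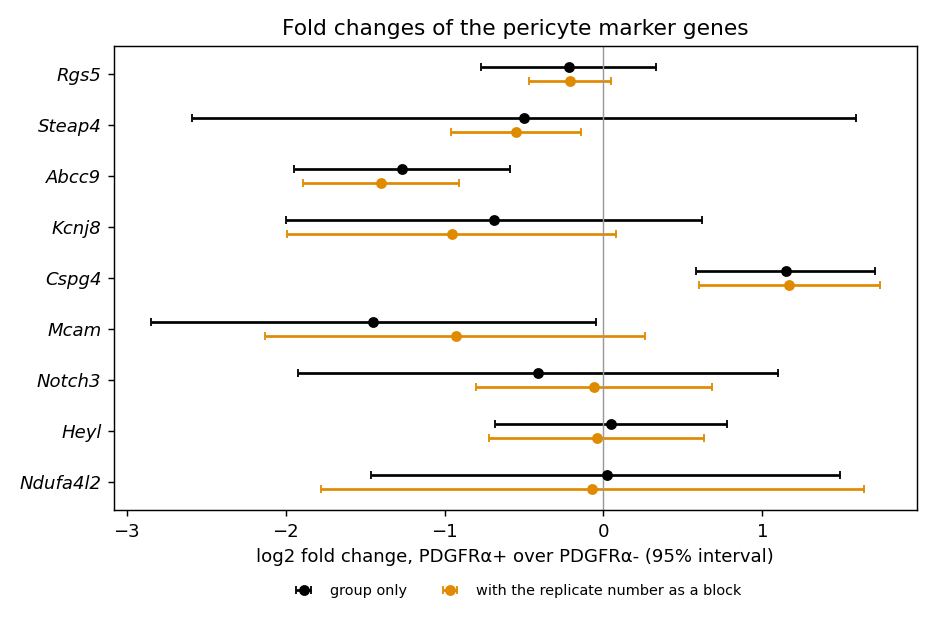
Log2 fold change of PDGFRα+ over PDGFRα- for each marker gene with its 95% interval, from the fit with group alone (black) and the fit with the replicate number as a block (orange). Abcc9 and Cspg4 lie on opposite sides of 0 in both fits, and Rgs5, Heyl and Ndufa4l2 lie near 0.

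Rgs5 itself, the most abundant member, did not separate the fractions. It encodes a regulator that shortens signalling by G proteins (ENSMUSG00000026678, chromosome 1, 169655501 to 169695813). PDGFRα+ libraries 1 to 4 had 1111, 561, 925 and 681 CPM and PDGFRα- libraries 1 to 4 had 1467, 718, 785 and 850.4 CPM. Number 1 was the highest and number 2 the lowest in each group. PDGFRα+ over PDGFRα- came to -0.22 ± 0.26 on the log2 scale (SE, 95% interval -0.77 to 0.33, edgeR adjusted p = 0.970), and to -0.21 with the block (-0.47 to 0.05, edgeR adjusted p = 0.556). Of 9 other genes of its R4 subfamily 5 were tested and edgeR called 0 in either fit (1 with an unadjusted p under 0.05 in each); DESeq2 and limma-voom also called 0. Rgs2, which acts on G proteins of contractile signalling, stood at 51.0 ± 10.2 CPM in PDGFRα+ and 34.8 ± 10.4 CPM in PDGFRα- libraries (edgeR adjusted p = 0.680), and Rgs16 at 39.7 ± 24.0 and 37.1 ± 22.6 CPM.

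Steap4 varied more between numbers than between fractions. It encodes a membrane metalloreductase induced by inflammatory cytokines (ENSMUSG00000012428, chromosome 5, 7960457 to 7982213). PDGFRα+ libraries 1 to 4 had 154, 21.5, 64.4 and 24.9 CPM and PDGFRα- libraries 1 to 4 had 210.0, 55.8, 85.2 and 24.2 CPM. Number 1 held the highest value in each group, followed by number 3. PDGFRα+ over PDGFRα- was -0.50 ± 0.88 on the log2 scale (SE, edgeR adjusted p = 0.983), which was 0.28 without PDGFRα- library 1. With the block it was -0.55 ± 0.19 (edgeR adjusted p = 0.205). Rgs5 and Steap4 deviated from their group means together (Pearson r 0.84 over 8 libraries, a description with no test). The summed level of 10 smooth muscle genes, none of them at 0 in a library, ran the other way. It was lowest in number 1, at 635 CPM in PDGFRα+ and 503 CPM in PDGFRα- libraries. PDGFRα+ libraries 2 to 4 had 1814, 1429.6 and 1213 CPM and PDGFRα- libraries 2 to 4 had 2041, 1217 and 1417 CPM. Myh11 and Acta2 weighed most in the sum, at means of 499 and 284 CPM. Not every gene followed it: Smtn was lowest in number 3 in both groups, and Des in PDGFRα+ libraries in number 4. The part of smooth muscle RNA in the differences between numbers was not tested. Of the family members Steap1 to Steap3, Steap3 stood at 23.3 ± 7.35 CPM in PDGFRα+ and 41.6 ± 9.63 CPM in PDGFRα- libraries and was called lower with the block alone (log2 fold change -0.86 ± 0.22 SE, edgeR adjusted p = 0.0496, against 0.340 in the primary fit). Steap2 was at 10.7 ± 1.84 and 9.59 ± 4.52 CPM, and Steap1 was not tested.

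Mcam and Notch3 were high in the same single library. Mcam encodes a cell adhesion molecule of mural and endothelial cells (ENSMUSG00000032135, chromosome 9, 44134469 to 44142727). It had 9.92, 7.13, 12.9 and 8.99 CPM in PDGFRα+ libraries 1 to 4 and 5.70, 15.0, 20.1 and 65.9 CPM in PDGFRα- libraries 1 to 4. Notch3, the Notch receptor gene of mural cells (ENSMUSG00000038146, chromosome 17, 32120820 to 32166852), had 4.79, 5.82, 14.2 and 16.3 CPM in PDGFRα+ libraries 1 to 4 and 4.15, 4.58, 11.8 and 33.9 CPM in PDGFRα- libraries 1 to 4. PDGFRα- library 4 was the highest for both, and the groups overlapped. Mcam had a log2 fold change of -1.45 ± 0.63 (SE, edgeR adjusted p = 0.695), which was -0.47 without PDGFRα- library 4 (adjusted p = 0.988). Notch3 had -0.41 ± 0.68 (adjusted p = 0.979), which was 0.59 without that library.

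Endothelial RNA was high in that library too. The summed level of 12 endothelial genes was 62.1 to 177 CPM in PDGFRα+ libraries and 99.8, 105, 163 and 745 CPM in PDGFRα- libraries 1 to 4. In PDGFRα- library 4 none of the 12 was at 0, and Pecam1, the gene of the CD31 used to exclude endothelium, stood at 132 CPM and the vascular cadherin gene Cdh5 at 113 CPM. In the other 7 libraries Pecam1 ran from 4.63 to 35.2 CPM and Cdh5 from 0.0 to 26.9 CPM, with 0 to 6 of the 12 genes at 0. Tek stood out less, at 92.0 CPM in PDGFRα- library 4 and 40.5 to 80.9 CPM in the other 7. It was a large part of the sum in several of those, with 43.1 of 62.1 CPM in PDGFRα+ library 2. Of 10 tested endothelial genes edgeR called 0 in either fit (unadjusted p under 0.05 for 1 without and 5 with the block). DESeq2 and limma-voom called 0 without the block, and 5 and 3 lower with it. The part of endothelial RNA in the levels of Mcam and Notch3 was not tested. Abcc9 without the same library had a log2 fold change of -1.16.

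**Figure D5:**
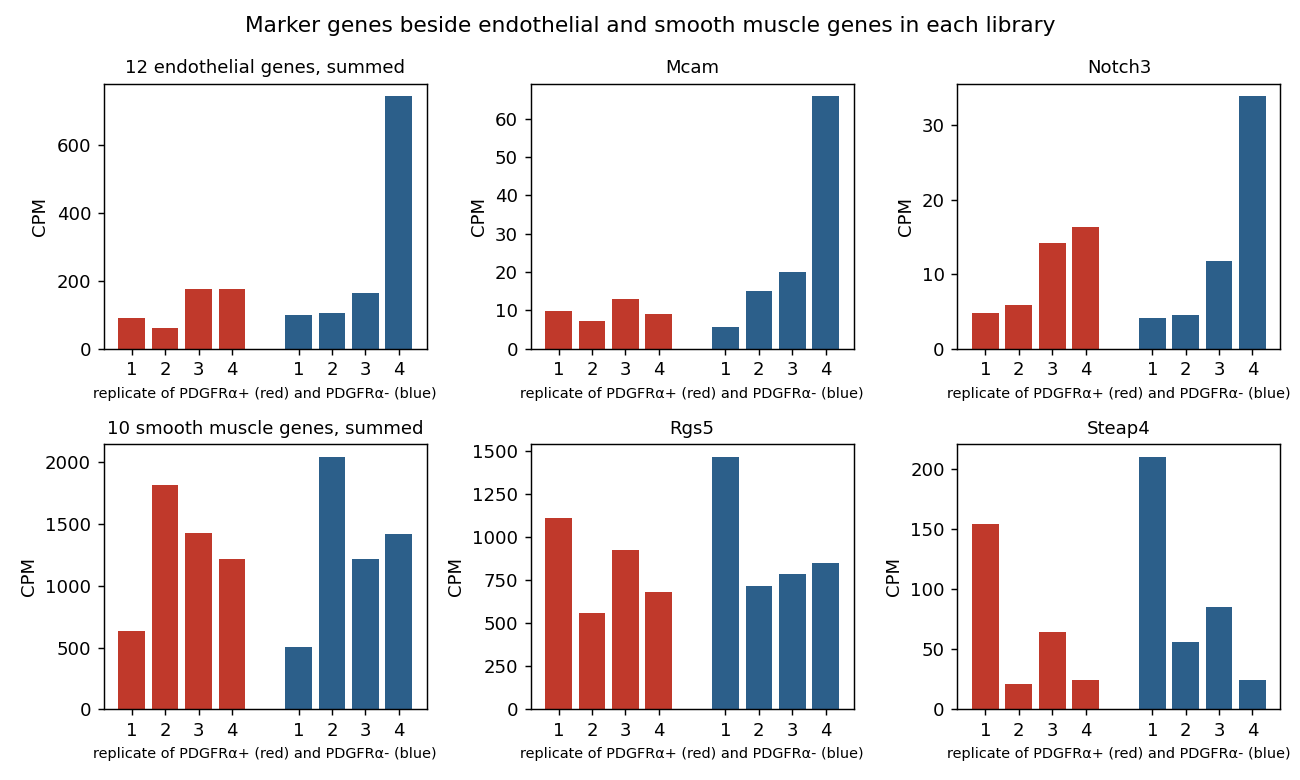
CPM in each library for 12 endothelial genes (summed), Mcam and Notch3 (top) and for 10 smooth muscle genes (summed), Rgs5 and Steap4 (bottom), PDGFRα+ in red left of PDGFRα- in blue. PDGFRα- library 4 stands out at 745 CPM for the endothelial sum, 65.9 for Mcam and 33.9 for Notch3. Number 1 is lowest for the smooth muscle sum and highest for Rgs5 and Steap4.

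Heyl, a transcription factor gene switched on by Notch signalling (ENSMUSG00000032744, chromosome 4, 123233556 to 123249875), stood at 15.2 CPM in that library, within the range of the other libraries. PDGFRα+ libraries 1 to 4 had 12.6, 6.92, 15.6 and 21.2 CPM and PDGFRα- libraries 1 to 4 had 11.2, 13.9, 14 and 15.2 CPM. The PDGFRα- values lay within a narrow range and the PDGFRα+ values on both sides of it (log2 fold change 0.05 ± 0.34 SE, edgeR adjusted p = 0.996). Of 25 other Notch pathway genes, all tested, edgeR called 0 in either fit (unadjusted p under 0.05 for 1 without and 3 with the block), DESeq2 and limma-voom also called 0, and the list had a median log2 fold change of -0.13. The most abundant were the target gene Hes1, at 265 ± 71.1 CPM in PDGFRα+ and 313 ± 71.9 CPM in PDGFRα- libraries, and the coactivator gene Maml2, at 175 ± 37.3 and 191 ± 52.9 CPM. Notch2 and Notch1, at 117 ± 28.7 and 55.3 ± 19.8 CPM in PDGFRα+ and 141 ± 27.1 and 50.4 ± 36.9 CPM in PDGFRα- libraries, are named here after their values were seen. So are Dll4, Notch4 and Nrarp, which were highest in PDGFRα- library 4, at 44.0, 15.6 and 11.7 CPM. In the other libraries they reached at most 13.2, 7.80 and 4.00 CPM. Hes1 (323 CPM) and Maml2 (187 CPM) in PDGFRα- library 4 were within the range of the other libraries.

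Ndufa4l2 was the member with fewest counts. It is a hypoxia-inducible gene whose product lowers mitochondrial oxygen use (ENSMUSG00000040280, chromosome 10, 127514967 to 127517154). PDGFRα+ libraries 1 to 4 had 3.75, 1.19, 3.74 and 2.53 CPM and PDGFRα- libraries 1 to 4 had 2.65, 2.97, 3.59 and 1.91 CPM, from 29 to 131 counts. The groups overlapped (log2 fold change 0.02 ± 0.69 SE, edgeR adjusted p = 0.998), and the 95% interval of -1.46 to 1.49 leaves room for more than a doubling either way. Its exons share 32 bases, 2.92% of their length, with Shmt2 on the other strand, which had up to 703 counts in a library. Since the strand option of the counting is not stated, the value of Ndufa4l2 is uncertain to that extent. Its relative Ndufa4, a cytochrome oxidase subunit gene, had 11.6, 11.3, 7.17 and 7.13 CPM in PDGFRα+ and 5.01, 2.66, 1.72 and 7.89 CPM in PDGFRα- libraries 1 to 4 (log2 fold change 1.10, edgeR adjusted p = 0.706). Of 10 hypoxia response genes 9 were tested and edgeR called 0 in either fit (unadjusted p under 0.05 for 1 without and 3 with the block). Without the block DESeq2 and limma-voom also called 0, and with it limma-voom called 1 lower. Ldha, a glycolytic enzyme gene, was at 112 ± 19.1 CPM in PDGFRα+ and 89.7 ± 10.5 CPM in PDGFRα- libraries, and the angiogenic factor gene Vegfa at 92.0 ± 29.0 and 88.5 ± 27.3 CPM. These are the 2 most abundant, and the list went both ways, with 4 positive and 5 negative log2 fold changes in the primary fit. Bnip3, named here after its values were seen, was lower without overlap, at 12.3 ± 4.01 and 21.4 ± 4.36 CPM. Of all tested genes, 2.36% were below without overlap.

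Among the 10 tested genes of the other mural cell list, 9 had negative log2 fold changes in the primary fit. The median of the 10 was -0.40 (-0.0087 over all tested genes, of which 49.1% were positive). In the primary fit edgeR called 0 (2 with an unadjusted p under 0.05), as did DESeq2 and limma-voom, and 1 was called lower with the block. That gene, Aoc3, encodes an amine oxidase of smooth muscle and adipose cells, and had 60.4, 49.3, 83.2 and 98.6 CPM in PDGFRα+ and 94.0, 120.5, 128 and 141 CPM in PDGFRα- libraries 1 to 4. It was lower in 4 of 4 pairs, though the groups overlapped (blocked log2 fold change -0.77 ± 0.15 SE, edgeR adjusted p = 0.0116, against 0.297 in the primary fit). P2ry14, a receptor gene for UDP-sugars, was at 129 ± 26.1 CPM in PDGFRα+ and 172 ± 27.1 CPM in PDGFRα- libraries (edgeR adjusted p = 0.0829 with the block). DESeq2 with the block called 2 genes of this list lower. Of the 10 smooth muscle genes the primary fit of edgeR called 0, with 0 reaching an unadjusted p of 0.05, and neither did DESeq2 or limma-voom on group alone call any. The blocked edgeR fit called 1 higher, and DESeq2 with the block also called 1 lower, Actg2 (log2 fold change -0.564, adjusted p = 0.0464 in the authors' deposited table). The gene called higher by edgeR, Myocd, encodes a coactivator of contractile genes (log2 fold change 1.22 ± 0.16 SE, edgeR adjusted p = 6.0e-04, against 0.752 in the primary fit). Myh11 and Acta2, the most abundant of that list, stood at 448 ± 181 and 306 ± 152 CPM in PDGFRα+ and 550.1 ± 315 and 261 ± 137 CPM in PDGFRα- libraries. In the fibroblast list, Adamdec1, a metalloprotease gene of intestinal fibroblasts, rose in both fits (log2 fold change 1.58, edgeR adjusted p = 0.0149), and Col1a1, Col1a2, Col3a1 and Dpt were called lower in the blocked but not the primary edgeR fit (blocked log2 fold changes -0.54, -0.55, -0.50 and -0.55). Without the block DESeq2 called 3 genes of that list lower, and edgeR without a filter on low counts 2.

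The other cell type lists were low. Summed over a list, leukocyte genes reached 8.19 to 14.2 CPM in PDGFRα+ and 10.3 to 39.1 CPM in PDGFRα- libraries, epithelial genes 1.84 to 7.65 and 2.61 to 30.1 CPM, and glial genes 0.0 to 4.75 and 1.56 to 9.25 CPM. Genes of interstitial cells of Cajal reached 13.8 to 37.4 and 7.12 to 33.2 CPM, and mesothelial genes 0.0410 to 13.4 and 0.0503 to 3.43 CPM. Over these 5 lists edgeR called 0 genes in either fit. Unadjusted p was under 0.05 for 1 leukocyte gene and 1 gene of interstitial cells in the primary fit, and for 3 genes of interstitial cells and 2 epithelial genes with the block. DESeq2 and limma-voom called 0 without the block. With it DESeq2 called 2 genes of interstitial cells and 1 epithelial gene lower, and limma-voom 1 gene of interstitial cells higher. Their part in the members' values was not tested.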

How the data were processed

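RNA of sorted cells was made into libraries with a strand-keeping low-input kit, per the labels' protocols. The submitters' processing notes name the build GRCm38 (mm10) and, as tools, DESeq2, featureCounts 2.0.1, STAR 2.7.3a and cutadapt 3.4. Settings, strand option and annotation were not stated. All tests used the raw counts per gene that the authors deposited. The deposited table also holds rounded size-factor normalized values and dispersions (each read as a score), and the authors' own fold ratio, log2 fold change and p-value per gene.

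Counts were tested with edgeR 4.0.16 (quasi-likelihood, robust, TMM, filterByExpr) in R 4.3.3, with limma 3.58.1 (voom) and DESeq2 1.42.0 as alternatives, and the procedure was tested on simulated data. All 8 libraries entered each fit. Positions, exon lengths and overlaps come from GENCODE M21, which holds 53706 of the 53801 identifiers, and promoters from RefSeq. Limits from counts cover counting error only, and no use of molecular identifiers is stated.

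The members and lists were chosen with earlier results of these data known. Text names the members, list genes called in either fit, the 2 most abundant genes of a list, protein-coding neighbours of the channel genes and closest profiles, of which those of Kcnj8 and Heyl are not reported here. Same-numbered libraries deviated together with r = 0.28, 0.20, 0.04 and 0.30 for numbers 1 to 4, so number 3 missed the 0.1 set for pairing. Over genes averaging at least 20 CPM the values were 0.59, 0.32, 0.27 and 0.60, all above it. Between libraries of unlike number from opposite groups, the highest r over all tested genes was 0.09, 0.09, 0.12 and 0.12 for numbers 1 to 4. Refitting DESeq2 with number plus group gave back the deposited dispersions of 29254 genes to within 0.000873%, while group alone missed them by up to 7500%.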

Additional observations from a re-analysis of the deposited data

How the results depend on the processing

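With the replicate block, edgeR called 209 genes higher and 146 lower, against 30 and 8 without it. Without a filter on low counts it called 167 and 110, and DESeq2 called 156 and 116. Combinations with the block, chosen after seeing the data, gave 194 and 151 (DESeq2 size factors), 386 and 423 (DESeq2) and 301 and 281 (limma-voom). Leaving out 1 library gave 7 to 39 higher and 0 to 11 lower, and leaving out number 1, 2, 3 or 4 with the block 124, 178, 77 and 185 higher and 72, 103, 22 and 115 lower. Of the members, 0 were higher and 0 lower in the primary fit. There were 1 and 1 with the block, also with DESeq2 size factors, DESeq2 or limma-voom, and 1 and 1 with DESeq2 alone. Without the filter there were 1 and 2, the second lower member being Mcam (log2 fold change -1.43, edgeR adjusted p = 0.0093). Leaving out libraries or numbers gave 0 to 1 in each direction. DESeq2 size factors in place of TMM changed no member's call and shifted all log2 fold changes by a median of -0.0118. No member's direction turned while it was called. The difference in the Abcc9 to Kcnj8 log2 ratio, PDGFRα+ minus PDGFRα-, stayed negative in all 15 alternatives (-0.82 to -0.07) and passed no test, and the sign-flip test over 4 pairs cannot go below 0.125. The cause of these changes was not tested. Depth limits Ndufa4l2 and Kcnj8 most, with as few as 29 and 22 counts in a library.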

Other observations

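For each member, the genes with the most similar profile were listed among the 6245 or 6246 other genes averaging 20 CPM or more, by Pearson r of log2(CPM + 0.5) over 8 libraries. The closest gene had r of 0.96 to 0.99 for every member, so the size of r does not tell the members apart, and no test is attached. Closest to Rgs5 were Ccl2, Furin and Zfp503, to Cspg4 Igfbp3, Rdh10 and Bmp6, and to Abcc9 Sec23a, Plce1 and Fzd7. Steap4 was closest to Socs1, Iigp1 and Smpd1, of which Socs1, a cytokine signalling inhibitor gene, and Iigp1, a GTPase gene, are known as interferon-induced. Notch3 was closest to Sema6d, Ptprb and Zbtb2, of which Ptprb is a phosphatase gene of endothelium, and Mcam to Rapgef2, Hdac7 and Jarid2. Ndufa4l2 was closest to Mon2, Nfkbib and Phlpp2. Notch3 and Mcam deviated from their group means together (Pearson r 0.83), while Cspg4 and Ndufa4l2 had the lowest value of the 36 member pairs (-0.71).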
